A study of Rattus norvegicus with 23 samples.

Results

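Genes of the hepcidin axis and of iron handling, Hamp, Bmp6, Slc40a1, Tfrc, Tfr2, Tf, Fth1, Ftl1, Cp and Slc39a14, were followed in rat liver. They were chosen by name from a fixed list of 10 genes among the 28913 gene rows of the deposited count table, by a rule that uses none of their values, though results of these data were known when the list was drawn up, and 9 of the 10 had counts high enough to test. The study built rat models of portosinusoidal vascular disease, which affects small hepatic vessels, and sequenced RNA of whole liver from Sprague Dawley rats in 23 libraries. The 10 Selfox libraries came from rats that ate a selenium-enriched diet for 8 weeks and were given 8 weekly intravenous injections of a mixture of 3 mg/kg oxaliplatin, 25 mg/kg 5-FU (the antimetabolite 5-fluorouracil) and 45 mg/kg folinic acid. For the 7 LPS libraries, rats were given lipopolysaccharide, a component of the outer wall of Gram-negative bacteria, at 1 mg/kg 2 times a week for 8 weeks, through a catheter placed into the portal system by surgery under isoflurane. The labels give no treatment for the rats of the 6 Control libraries, and no surgery is described for them. Diet and drugs in Selfox, and surgery, catheter and lipopolysaccharide in LPS, cannot be told apart. Age and sex of the rats are not given in the labels used here. The labels do not say that each library is a different rat, so p-values measure the spread between libraries.

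Hepcidin, the peptide hormone encoded by Hamp, is made by hepatocytes and binds ferroportin (Slc40a1), the cellular iron exporter, which is then degraded, so that less iron enters the plasma. Hamp transcription is known to be driven by BMP ligands acting through SMAD proteins, which report iron stores, and by IL-6 acting through STAT3, which reports inflammation. Plasma iron travels on transferrin (Tf), enters cells through transferrin receptor 1 (Tfrc) and is sensed on hepatocytes by transferrin receptor 2 (Tfr2). Iron not bound to transferrin enters hepatocytes through ZIP14 (Slc39a14), is stored in ferritin made of heavy (Fth1) and light (Ftl1) chains, and is oxidised for loading onto transferrin by the plasma ferroxidase ceruloplasmin (Cp).

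The promoters of the hormone gene and of the members that passed a test below are shown as the 250 bases before the transcription start, read 5′ to 3′ on the gene's own strand, from RefSeq for the assembly GRCr8. Hamp lies on the minus strand at chr1:95300272-95300521, Cp on the plus strand at chr2:104368420-104368669 and Tf on the minus strand at chr8:112695377-112695626. Capitals mark the matches to 4 motifs searched by their letters on both strands: GGCGCC, a BMP-responsive element; TTCNNNGAA, a STAT element; TTNNGNAA, a C/EBP element; and ACGTG, the core of a hypoxia element.
Hamp: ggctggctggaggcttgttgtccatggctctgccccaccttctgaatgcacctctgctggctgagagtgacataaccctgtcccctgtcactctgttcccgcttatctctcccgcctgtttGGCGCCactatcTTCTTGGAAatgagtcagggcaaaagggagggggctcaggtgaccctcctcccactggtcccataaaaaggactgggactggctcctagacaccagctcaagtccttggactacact
Cp: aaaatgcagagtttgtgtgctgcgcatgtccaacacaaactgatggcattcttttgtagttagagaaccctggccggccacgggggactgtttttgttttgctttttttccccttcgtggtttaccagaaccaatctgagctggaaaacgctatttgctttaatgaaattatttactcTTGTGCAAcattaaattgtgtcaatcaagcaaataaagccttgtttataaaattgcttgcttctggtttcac
Tf: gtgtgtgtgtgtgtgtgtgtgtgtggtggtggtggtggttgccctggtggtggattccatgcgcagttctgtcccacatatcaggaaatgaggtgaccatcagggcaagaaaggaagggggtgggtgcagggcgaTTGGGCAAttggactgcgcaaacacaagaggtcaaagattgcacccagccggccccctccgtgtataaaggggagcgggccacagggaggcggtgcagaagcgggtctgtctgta
In Hamp, GGCGCC stood at bases -129 to -124 and TTCTTGGAA, a match to TTCNNNGAA, at -117 to -109, counted back from -1 at the base before the start. Of 33469 rat promoters of the same length, 8.69% held GGCGCC, 7.67% TTCNNNGAA, 37.2% TTNNGNAA and 16.6% ACGTG. The promoter table held 7 of the 10 members. Among them Hamp alone held TTCNNNGAA, GGCGCC was also in Tfrc, TTNNGNAA was in Cp and Tf, and ACGTG was in Tfrc. The GGCGCC letters were in 3 of 7 promoters of other BMP and SMAD target genes, those of Bambi, Smad7 and Smad9. A match describes letters in the window and shows no binding.

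Library depth was 65.1 to 74.8 M counts (M, mega) in Selfox, 70.4 to 79.2 M in LPS and 31.9 to 53.8 M in Control, which left every Control library shallower than those of the models. In 5 libraries (Selfox 8, LPS 5, LPS 6, LPS 7 and Control 55) Dbp, a clock output gene, stood above Arntl, a gene of the core clock, and each member was also tested without them. In Selfox 8 the levels nearly tied. The labels used here give no hour of collection. Markers of hepatocytes, the cells that make most of these proteins, were detected in every group, with a summed level of 108200 to 141600 counts per M, written CPM, in Selfox, 94390 to 173300 in LPS and 141000 to 216200 in Control. Most of this sum was Alb, the albumin gene, with medians of 96050 CPM in Selfox, 116200 in LPS and 127600 in Control. Of the 8 hepatocyte markers 1 rose and 4 fell in Selfox against Control, 0 passed in LPS against Control, and 4 fell in Selfox against LPS. The shares of all genes tested that passed in these comparisons were 29.1%, 14.7% and 14.5%. The summed Kupffer cell markers, 11 with a row, ran from 270 to 411 CPM in Selfox, 646 to 982 in LPS and 741 to 1004 in Control, and all 11 fell in Selfox against Control. Neutrophil markers ran from 5.05 to 122 CPM in Selfox, 4.04 to 11.3 in LPS and 4.23 to 12.4 in Control, with Ltf at 0 counts in every library. The part of cell composition in the values below was not tested. In whole tissue, fewer cells of a type and less RNA per cell cannot be told apart.

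The genes of ceruloplasmin and transferrin were the members that passed, each against Control. Hepcidin passed in no comparison, and its group medians lay close together. Each comparison was a quasi-likelihood F test of edgeR on all 15079 genes with enough counts, adjusted by Benjamini-Hochberg over those genes and called at an adjusted p under 0.05. In Selfox against Control 2 of the 9 tested members rose and 0 fell, while 29.1% of all genes passed, 14.2% higher and 14.9% lower. In LPS against Control 1 of 9 members rose and 0 fell, while 14.7% of all genes passed, 7.71% higher and 6.99% lower. Between Selfox and LPS 0 of 9 members passed, while 14.5% of all genes did, 6.86% higher and 7.64% lower. In that last comparison 1 member, Tfr2, had an unadjusted p under 0.05, and DESeq2 and limma voom also called 0. In each comparison the share of members called was below that of all genes. The median log2 fold change of the tested members was 0.14 in Selfox against Control, 0.14 in LPS against Control and -0.04 in Selfox against LPS, beside 0.01, 0.01 and 0.00 over all genes tested.

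**Figure D1:**
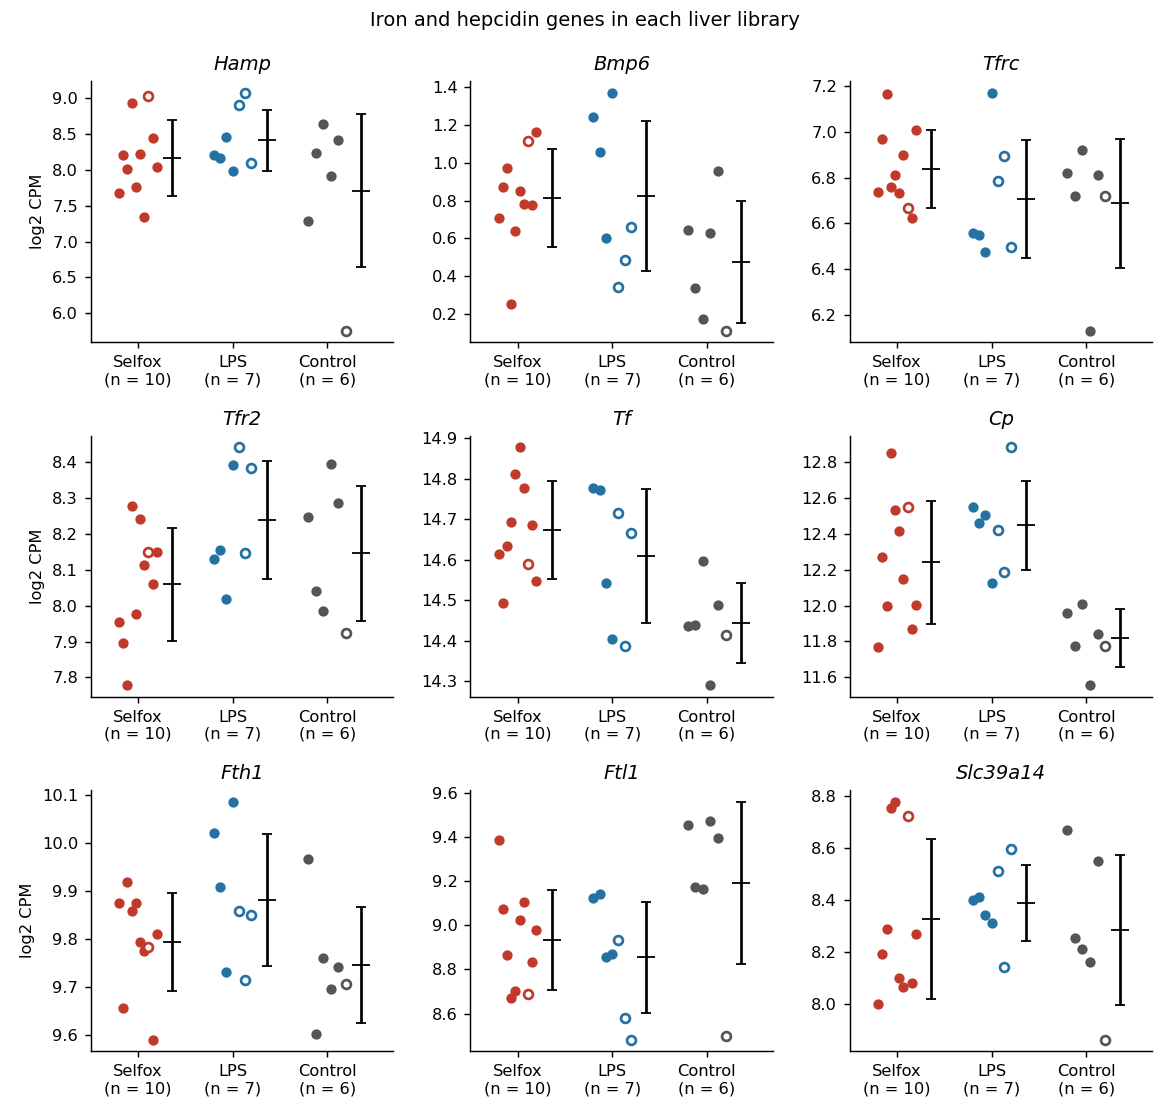
Level of the 9 tested members in every library, in log2 CPM, with Selfox, LPS and Control from left to right; bars show the mean and SD, and open circles the 5 libraries with Dbp above Arntl. The 7 LPS libraries of Cp lie above every Control library, while the groups of Hamp overlap.

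Hamp had a lowest, median and highest level of 163, 279 and 520 CPM in Selfox, 252, 294 and 538 CPM in LPS and 54.2, 272 and 396 CPM in Control. The 3 medians lay close together and the groups overlapped, with the lowest library of all, Control 55, standing below every other and with Selfox 8 and LPS 6 as the highest of their groups. Within a group the highest library exceeded the lowest by 3.2-fold in Selfox, 2.13-fold in LPS and 7.32-fold in Control. The log2 fold change (± SE) was 0.29 ± 0.31 in Selfox against Control (edgeR adjusted p = 0.513) and 0.51 ± 0.34 in LPS against Control (edgeR adjusted p = 0.335). Their unadjusted 95% intervals ran from -0.36 to 0.95 and from -0.19 to 1.21, and the libraries limit an increase no more tightly than those upper bounds. Control 55 decided much of both values. Without it the log2 fold change was 0.09 in Selfox (edgeR adjusted p = 0.834) and 0.30 in LPS (edgeR adjusted p = 0.497). Without all 5 libraries with Dbp above Arntl it was -0.03 in Selfox (edgeR adjusted p = 0.927) and 0.04 in LPS (edgeR adjusted p = 0.951), against Control in each case. These 5 libraries held the highest Hamp of Selfox (Selfox 8, 520 CPM), the highest of LPS (LPS 6, 538 CPM, and LPS 5, 480 CPM) and the lowest of Control. Between Selfox and LPS the log2 fold change was -0.21 ± 0.30 (edgeR adjusted p = 0.692).

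Bmp6 encodes the iron-induced BMP ligand that sinusoidal endothelial cells make for the hepatocyte. It had few reads, with a lowest, median and highest level of 1.16, 1.73 and 2.21 CPM in Selfox, 1.24, 1.55 and 2.55 CPM in LPS and 1.05, 1.37 and 1.91 CPM in Control. The groups overlapped, and 3 Selfox and 3 LPS libraries lay above every Control library. The log2 fold change was 0.33 ± 0.17 in Selfox against Control (edgeR adjusted p = 0.155) and 0.37 ± 0.19 in LPS against Control (edgeR adjusted p = 0.185). Between Selfox and LPS it was -0.04 ± 0.16 (edgeR adjusted p = 0.909). The counts behind these values were 85 to 157 per library in Selfox, 90 to 200 in LPS and 35 to 76 in Control. Of counts from 1 to 9, 66.1% to 74.9% per library were even numbers, so the number of separate fragments behind a low count may be smaller. Counts of Bmp6 lay above that range. With all counts divided by 2, Bmp6 again passed in no comparison, but smaller counts were unlikely to bring a new call.

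Neither transferrin receptor passed. For Tfrc, the receptor that takes up loaded transferrin and whose mRNA is stabilised in iron-poor cells, the lowest, median and highest levels were 98.5, 110 and 144 CPM in Selfox, 88.9, 94.1 and 144 CPM in LPS and 70.1, 109 and 121 CPM in Control. The groups overlapped, and Control 49 stood below all the others. The log2 fold change was 0.14 ± 0.11 in Selfox against Control (edgeR adjusted p = 0.383), 0.02 ± 0.12 in LPS against Control (edgeR adjusted p = 0.945) and 0.12 ± 0.11 in Selfox against LPS (edgeR adjusted p = 0.499). Tfr2, which with HFE helps hepatocytes report transferrin saturation to hepcidin, had 220, 272 and 310 CPM in Selfox, 259, 285 and 348 CPM in LPS and 243, 284 and 337 CPM in Control as lowest, median and highest. Ranges overlapped, with 4 of 10 Selfox libraries below every LPS library. The log2 fold change of Tfr2 in Selfox against LPS was -0.18 ± 0.083 (edgeR p = 0.0416, adjusted p = 0.157). It was -0.09 ± 0.087 in Selfox against Control (edgeR adjusted p = 0.475) and 0.09 ± 0.094 in LPS against Control (edgeR adjusted p = 0.565).

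Transferrin mRNA rose slightly in Selfox. Tf, the iron carrier of plasma, had a lowest, median and highest level of 23080, 25880 and 30080 CPM in Selfox, 21430, 25990 and 28050 CPM in LPS and 20040, 22190 and 24770 CPM in Control. The groups overlapped, but 7 of 10 Selfox and 4 of 7 LPS libraries lay above every Control library. The rise in Selfox against Control was 0.23 ± 0.077 on the log2 scale, or 1.17-fold (edgeR adjusted p = 0.0273). That call rested on Control 49, the lowest Control library, without which the log2 fold change was 0.20 (edgeR adjusted p = 0.0774); it was kept in the other 15 of 16 fits that left out 1 library. In LPS against Control Tf stood at 0.17 ± 0.083 (edgeR adjusted p = 0.174), and in Selfox against LPS at 0.06 ± 0.073 (edgeR adjusted p = 0.640). Tf is thus called in one model and not in the other, but the test of the models against each other did not pass.

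Ceruloplasmin showed the clearest difference among the members. Cp, the copper-carrying ferroxidase and acute phase protein, had a lowest, median and highest level of 3494, 4745 and 7385 CPM in Selfox, 4480, 5636 and 7557 CPM in LPS and 3011, 3587 and 4127 CPM in Control. All 7 LPS libraries and 6 of 10 Selfox libraries lay above every Control library, with LPS 7 and Selfox 4 highest. A complete separation of this kind, with every LPS library above every Control library, was found in 1.83% of all genes tested. Cp rose by 0.64 ± 0.15 on the log2 scale in LPS against Control, or 1.56-fold (edgeR adjusted p = 0.00676). The call was kept in 13 of 13 fits that left out 1 library, with a log2 fold change of 0.55 to 0.69. In Selfox against Control Cp rose by 0.45 ± 0.14, or 1.37-fold (edgeR adjusted p = 0.0188), and without Control 49 the value was 0.40 and not past the threshold (edgeR adjusted p = 0.0526). Between Selfox and LPS the log2 fold change was -0.19 ± 0.13 (edgeR adjusted p = 0.372). The coefficient of variation of Cp was 24.6% in Selfox, 17.8% in LPS and 10.9% in Control.

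Neither ferritin chain passed the test over all libraries. Fth1, the chain with the ferroxidase site, had 770, 892 and 967 CPM in Selfox, 839, 928 and 1086 CPM in LPS and 777, 845 and 1000 CPM in Control as lowest, median and highest. Its ranges overlapped widely. The log2 fold change of Fth1 was 0.05 ± 0.069 in Selfox against Control (edgeR adjusted p = 0.648), 0.14 ± 0.074 in LPS against Control (edgeR adjusted p = 0.226) and -0.09 ± 0.066 in Selfox against LPS (edgeR adjusted p = 0.396). Ftl1, the chain that helps form the mineral core, had 407, 485 and 668 CPM in Selfox, 358, 468 and 564 CPM in LPS and 361, 624.6 and 710 CPM in Control. Control 55 was the lowest Control library, inside the range of LPS; the other 5 Control libraries, at 573 CPM and above, exceeded all 7 LPS libraries. The log2 fold change was -0.28 ± 0.13 in Selfox (edgeR adjusted p = 0.116) and -0.35 ± 0.14 in LPS (edgeR adjusted p = 0.0981), against Control in each case. Without Control 55 both passed, at -0.39 in Selfox (edgeR adjusted p = 0.0142) and -0.46 in LPS (edgeR adjusted p = 0.0122). That was 1 of 16 fits that left out 1 library in Selfox and 1 of 13 in LPS, and the others did not pass. Without Control 49 the values were -0.224 in Selfox (edgeR adjusted p = 0.253) and -0.305 in LPS (edgeR adjusted p = 0.205). Without all 5 libraries with Dbp above Arntl the value was -0.36 in Selfox (edgeR adjusted p = 0.0123) and -0.34 in LPS (edgeR adjusted p = 0.0824). Between Selfox and LPS Ftl1 stood at 0.08 ± 0.13 (edgeR adjusted p = 0.745). RefSeq gives Ftl1 as another name of LOC100360087, which has a row of its own. Its medians were 1.42 CPM in Selfox, 1.23 in LPS and 1.79 in Control. Whether reads were shared between the 2 rows was not tested, so reads of Ftl1 remain uncertain to that degree.

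Slc39a14, the importer ZIP14, had a lowest, median and highest level of 256, 300.4 and 439 CPM in Selfox, 282, 337 and 387 CPM in LPS and 233, 301 and 406 CPM in Control. The ranges overlapped, and 3 Selfox libraries (Selfox 5, 4 and 8) lay above every other library. Its log2 fold change was 0.05 ± 0.13 in Selfox against Control (edgeR adjusted p = 0.820), 0.09 ± 0.14 in LPS against Control (edgeR adjusted p = 0.737) and -0.04 ± 0.13 in Selfox against LPS (edgeR adjusted p = 0.880). The row of Slc40a1, the exporter ferroportin that hepcidin acts on, was nearly empty, with 0 to 6 counts per library in Selfox, 2 to 3 in LPS and 0 to 4 in Control. It was left out of the test by the filter on low counts, and no fold is given. Its level in these livers cannot be read from this row.

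**Figure D2:**
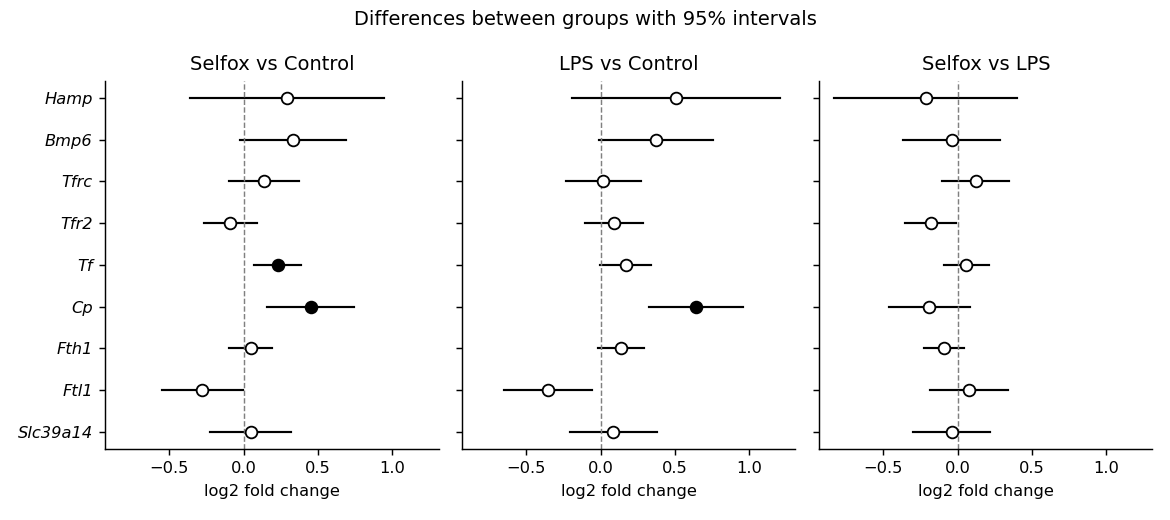
Log2 fold change of each tested member with its unadjusted 95% interval in Selfox against Control, LPS against Control and Selfox against LPS; filled points passed the edgeR test at an adjusted p under 0.05. Filled points are Cp in both comparisons with Control and Tf in Selfox against Control, and the intervals of Hamp are the widest.

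Some genes that carry the BMP signal to hepcidin passed, in both directions, among them the ligand gene Bmp2, the receptor gene Acvr1 and Hfe. Of 14 tested genes of BMP and SMAD signalling, 2 rose and 1 fell in Selfox against Control, 1 rose and 1 fell in LPS against Control, and 3 rose and 3 fell in Selfox against LPS. Over all genes 29.1%, 14.7% and 14.5% passed in these comparisons, so the counts against Control were no larger a share than over all genes. The median log2 fold change of the 14 was -0.03, 0.04 and -0.04 in the same comparisons. Bmp2, a BMP ligand of the sinusoidal endothelium, had a lowest, median and highest level of 9.30, 13.8 and 19.1 CPM in Selfox, 4.92, 7.56 and 10.2 CPM in LPS and 7.52, 8.82 and 13.3 CPM in Control. Groups overlapped, with 7 of 10 Selfox libraries above every LPS library. Bmp2 rose by 0.83 ± 0.16 on the log2 scale in Selfox against LPS (edgeR adjusted p = 0.00114). Against Control it rose by 0.46 ± 0.17 in Selfox (edgeR adjusted p = 0.0415), a call lost in 10 of 16 fits that left out 1 library, and stood at -0.37 ± 0.18 in LPS (edgeR adjusted p = 0.162). The summed sinusoidal endothelial markers, among which Bmp2 is counted, ran from 436 to 532 CPM in Selfox, 237 to 459 in LPS and 419 to 496 in Control, and their part in the Bmp2 values was not tested.

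Hfe, the membrane protein mutated in hereditary haemochromatosis, had 25.1, 30.7 and 34.6 CPM in Selfox, 18.3, 23.2 and 25.3 CPM in LPS and 17.7, 22.9 and 26.4 CPM in Control as lowest, median and highest. All but 1 Selfox library lay above both other groups, since 9 of 10 exceeded every LPS and every Control library. Hfe rose by 0.43 ± 0.086 in Selfox against Control (edgeR adjusted p = 0.000675) and by 0.39 ± 0.081 against LPS (edgeR adjusted p = 0.00226). Acvr1, the type I BMP receptor ALK2, had medians of 15.6 CPM in Selfox, 26.1 in LPS and 22.9 in Control. It fell by 0.52 ± 0.15 in Selfox against Control (edgeR adjusted p = 0.0107) and by 0.58 ± 0.14 against LPS (edgeR adjusted p = 0.0067). Smad1, a signal-carrying SMAD, rose by 0.32 ± 0.093 in LPS against Control (edgeR adjusted p = 0.0198), a call lost without Control 41 or Control 49, and fell by 0.33 ± 0.083 in Selfox against LPS (edgeR adjusted p = 0.0066). Neo1, which encodes the hemojuvelin-binding protein neogenin, fell by 0.23 ± 0.062 in LPS against Control (edgeR adjusted p = 0.0187), a call lost without Control 46 or Control 52. The receptor genes Bmpr2 and Bmpr1a passed in Selfox against LPS at 0.21 and -0.23, but both calls were lost in most fits that left out 1 library.

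Genes known to respond to the same BMP signal as Hamp also changed in both directions. Of 7 tested, 2 rose and 1 fell in Selfox against Control, 0 passed in LPS against Control, and 1 rose and 2 fell in Selfox against LPS. Beside these counts, 29.1%, 14.7% and 14.5% of all genes tested passed in the same comparisons. Id1, a standard read-out of BMP signalling in the liver, had a lowest, median and highest level of 0.756, 1.99 and 2.46 CPM in Selfox, 1.82, 3.22 and 4.09 CPM in LPS and 1.56, 2.32 and 3.73 CPM in Control. Ranges overlapped, with 4 of 10 Selfox libraries below every LPS library. Id1 fell by 0.81 ± 0.21 in Selfox against LPS (edgeR adjusted p = 0.0122), and stood at -0.43 ± 0.23 in Selfox against Control (edgeR adjusted p = 0.166) and 0.38 ± 0.25 in LPS against Control (edgeR adjusted p = 0.318). Smad7, an inhibitory SMAD, had medians of 10.3 CPM in Selfox, 15.1 in LPS and 14.5 in Control. It fell by 0.55 ± 0.18 in Selfox against Control (edgeR adjusted p = 0.0204; 0.0633 without Control 46) and by 0.60 ± 0.17 against LPS (edgeR adjusted p = 0.0173, lost without the libraries with Dbp above Arntl). Bambi, a decoy receptor, rose by 0.71 ± 0.19 in Selfox against LPS (edgeR adjusted p = 0.012), a call lost when only libraries 1 to 7 of both groups were compared. Against Control, Bambi rose by 0.54 ± 0.20 in Selfox (edgeR adjusted p = 0.0461), a call kept in 5 of 16 fits that left out 1 library. Id2 rose by 0.73 ± 0.25 in Selfox against Control (edgeR adjusted p = 0.0304), a call kept in 11 of 16. In LPS against Control the nearest were Atoh8 at -0.29 (edgeR adjusted p = 0.187) and Id3 at 0.20 (edgeR adjusted p = 0.245).

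On the inflammatory side, Il6 was low and rose in Selfox. Of 8 tested genes of the IL-6 and STAT3 arm, 1 rose in Selfox against Control, 1 in LPS against Control and 2 in Selfox against LPS, and 0 fell in any of them. Of all genes tested, 14.2%, 7.71% and 6.86% rose in these comparisons, and 14.9%, 6.99% and 7.64% fell. Il6, the cytokine gene, had a lowest, median and highest level of 0.175, 2.17 and 9.39 CPM in Selfox, 0, 0.0511 and 0.167 CPM in LPS and 0, 0.140 and 0.928 CPM in Control. All 10 Selfox libraries lay above every LPS library, as in 0.743% of all genes tested, and 6 of 10 lay above every Control library. The separation from LPS was bare, with 12 counts in the lowest Selfox library and 12 in the highest LPS library. Il6 rose by 5.51 ± 1.07 on the log2 scale in Selfox against LPS (edgeR adjusted p = 0.0016) and by 3.06 ± 0.97 against Control (edgeR adjusted p = 0.0217). Both calls were lost with limma voom, and that against Control also without Control 49 (edgeR adjusted p = 0.0504) and without the libraries with Dbp above Arntl. Il1b rose by 1.94 ± 0.59 in Selfox against LPS (edgeR adjusted p = 0.0295), a call kept in 10 of 17 fits that left out 1 library and lost without the libraries with Dbp above Arntl. The neutrophil marker sums given above were also highest in Selfox, and 5 of 7 tested neutrophil markers rose there against either group. All 5 calls against either group were lost with limma voom and without the libraries with Dbp above Arntl, and the part of these markers in the Il6 and Il1b values was not tested. The kinase gene Jak1 rose by 0.21 in LPS against Control (edgeR adjusted p = 0.0322, kept in 6 of 13 fits). Socs3, a STAT3 target, spread from 2.87 to 111 CPM in Selfox, 6.07 to 31.3 in LPS and 4.54 to 26.1 in Control, and did not pass in any comparison.

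**Figure D3:**
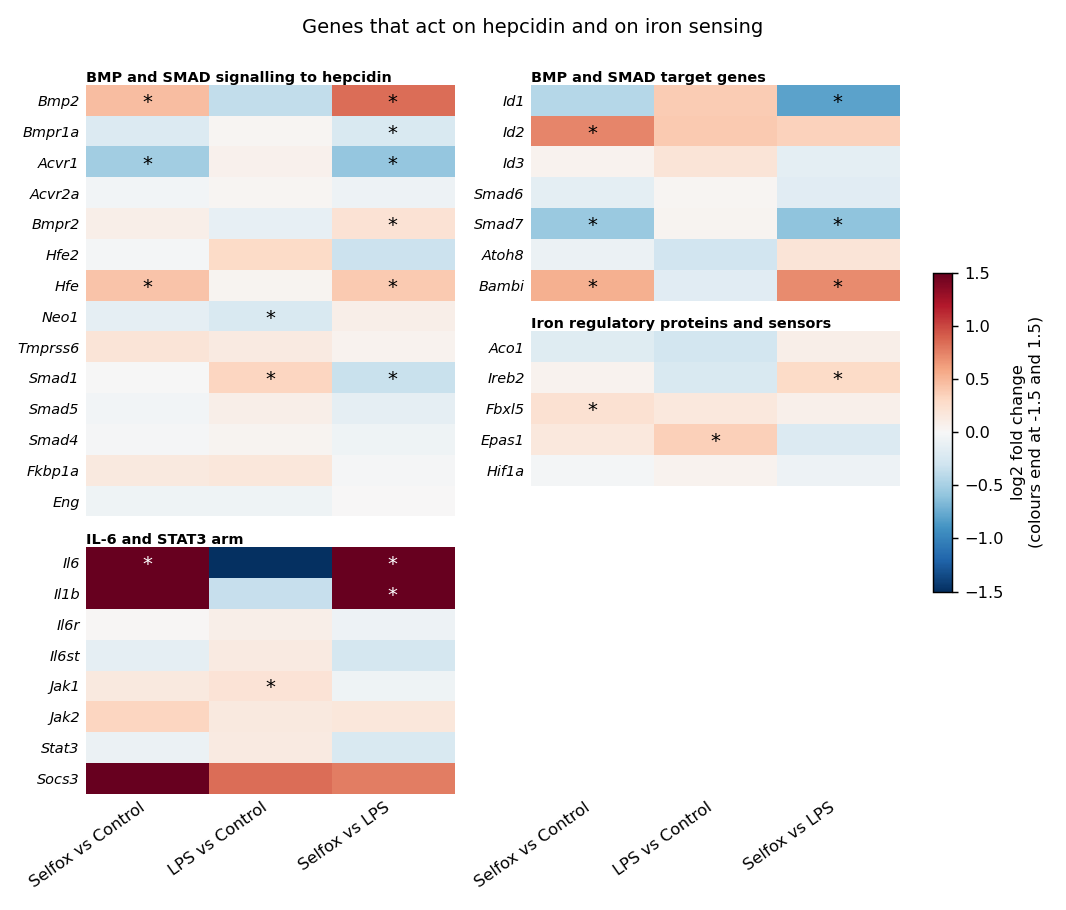
Log2 fold change of genes that act on hepcidin or answer to the same signals (down the page; Hfe2 is the hemojuvelin gene) in Selfox against Control, LPS against Control and Selfox against LPS (from left to right), with colours ending at -1.5 and 1.5 and asterisks where the edgeR adjusted p was under 0.05. Hfe and Bmp2 are higher and Acvr1 and Smad7 lower in Selfox against both other groups.

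Acute phase genes were examined beside Cp, which belongs to the same list. Of 13 tested, 2 rose in Selfox against Control (Orm1 and Cp), 5 in LPS against Control and 0 in Selfox against LPS, and 0 fell. In the same comparisons 29.1%, 14.7% and 14.5% of all genes tested passed, 14.2%, 7.71% and 6.86% of them all as higher. Hp, which encodes the haemoglobin scavenger haptoglobin, had a lowest, median and highest level of 7243, 10370 and 15840 CPM in Selfox, 10170, 11950 and 16370 CPM in LPS and 6912, 7912 and 11570 CPM in Control. It rose by 0.57 ± 0.15 in LPS against Control (edgeR adjusted p = 0.0151), a call kept in 13 of 13 fits that left out 1 library. Orm1, the plasma protein orosomucoid, rose by 1.15 in Selfox against Control (edgeR adjusted p = 0.00985) and by 1.00 in LPS against Control (edgeR adjusted p = 0.0482, kept in 5 of 13 fits). Lcn2, the siderophore-binding protein lipocalin, rose by 4.58 ± 1.30 in LPS against Control (edgeR adjusted p = 0.0222), but LPS 5 decided the size, and without it the value was 2.22 and the call was lost (edgeR adjusted p = 0.13), as it also was without Control 49 or Control 52. The other riser in LPS was Itih4, at 0.43 (edgeR adjusted p = 0.0292, kept in 9 of 13 fits). Without the libraries with Dbp above Arntl the calls of Hp, Orm1, Lcn2 and Itih4 in LPS against Control were lost, and of the 5 risers only Cp was kept. In Selfox against LPS the nearest to passing were Itih3 at -0.17 and Itih4 at -0.29 (edgeR adjusted p = 0.0887 and 0.0969).

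Over the 8 lists of hepcidin signalling, iron, haem and iron-sulfur genes together, with 92 genes tested, 13 rose and 9 fell in Selfox against Control (23.9%), 10 rose and 2 fell in LPS against Control (13.0%), and 11 rose and 11 fell in Selfox against LPS (23.9%). The shares over all genes tested in these comparisons were 29.1%, 14.7% and 14.5%. Among iron sensors, 1 of 5 rose in each comparison. Fbxl5, the iron-binding ubiquitin ligase subunit that marks IRP2 for degradation, rose by 0.23 ± 0.069 in Selfox against Control (edgeR adjusted p = 0.0204), a call lost without Control 49. Epas1, which encodes the hypoxia factor HIF-2 alpha, rose by 0.36 ± 0.10 in LPS against Control (edgeR adjusted p = 0.0223), a call lost without Control 46 or Control 49 and without the libraries with Dbp above Arntl. Ireb2, which encodes IRP2, rose by 0.29 ± 0.088 in Selfox against LPS (edgeR adjusted p = 0.0228), a call lost without LPS 2 or LPS 7 and without the libraries with Dbp above Arntl.

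Of 15 other genes of iron import, reduction and storage, 3 rose and 1 fell in Selfox against Control, 2 rose in LPS against Control, and 2 rose and 2 fell in Selfox against LPS. In the same comparisons 29.1%, 14.7% and 14.5% of all genes tested passed. Heph, a ferroxidase related to ceruloplasmin, had a lowest, median and highest level of 2.48, 2.97 and 4.16 CPM in Selfox, 0.658, 1.34 and 1.81 CPM in LPS and 1.41, 1.47 and 1.99 CPM in Control. All 10 Selfox libraries lay above every library of both other groups. Such a separation was found in 2.37% of all genes in Selfox against Control and in 0.743% in Selfox against LPS. Heph rose by 1.00 ± 0.16 in Selfox against Control (edgeR adjusted p = 0.000118) and by 1.30 ± 0.15 against LPS (edgeR adjusted p = 6.36e-06). Steap2, a metalloreductase, rose by 1.37 ± 0.33 in Selfox (edgeR adjusted p = 0.00305) and by 1.41 ± 0.34 in LPS (edgeR adjusted p = 0.00801) against Control, with low medians of 0.706 CPM in Selfox, 0.920 in LPS and 0.361 in Control. Ncoa4, the receptor that carries ferritin to lysosomes, fell by 0.27 ± 0.067 in Selfox against Control (edgeR adjusted p = 0.00351), and by 0.21 against LPS (edgeR adjusted p = 0.0257, kept in 13 of 17 fits). Its medians were 137 CPM in Selfox, 158 in LPS and 162 in Control. Scara5, a ferritin receptor, fell by 0.81 ± 0.19 in Selfox against LPS (edgeR adjusted p = 0.00623). Metalloreductase genes of the Steap family passed as well, Steap1 at 1.38 in Selfox against LPS, lost without the libraries with Dbp above Arntl, and Steap4 at 0.30 in Selfox against Control, kept in 3 of 16 fits.

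Of 14 genes of haem scavenging, transport and breakdown, 1 rose and 3 fell in Selfox against Control, 3 rose in LPS against Control, and 1 rose and 1 fell in Selfox against LPS. Shares over all genes tested were 29.1%, 14.7% and 14.5% in these comparisons. Cd163, the macrophage receptor for haemoglobin bound to haptoglobin, had a lowest, median and highest level of 24.2, 29.5 and 48.98 CPM in Selfox, 32.0, 75.3 and 86.9 CPM in LPS and 49.03, 72.0 and 76.6 CPM in Control. All 10 Selfox libraries lay below every Control library, the highest of them barely so, as in 2.55% of all genes tested. Cd163 fell by 1.10 ± 0.17 in Selfox against Control (edgeR adjusted p = 8.89e-05) and by 1.09 ± 0.17 against LPS (edgeR adjusted p = 0.000134). It is itself a Kupffer cell marker, and all 11 tested Kupffer cell markers fell in Selfox against Control. Hebp1, a haem-binding protein, rose in both models, with medians of 50.1 CPM in Selfox, 55.8 in LPS and 32.1 in Control. Neither model overlapped with Control, the lowest Selfox library standing at 37.7 CPM and the highest Control library at 36.4 CPM. Every library lay above every Control library in 2.37% of all genes tested for Selfox and in 1.83% for LPS. The rise of Hebp1 was 0.70 ± 0.12 in Selfox (edgeR adjusted p = 0.000178) and 0.77 ± 0.13 in LPS (edgeR adjusted p = 0.000478). Both of these used the same 6 Control libraries. Slc48a1, a haem transporter, rose by 0.29 ± 0.083 in LPS against Control (edgeR adjusted p = 0.0212, lost without the libraries with Dbp above Arntl), and Blvra, a biliverdin reductase, fell by 0.31 in Selfox against Control (edgeR adjusted p = 0.00882). The haem exporter gene Flvcr1 fell by 0.54 in Selfox against Control and the transporter gene Abcg2 rose by 1.12 in Selfox against LPS, calls kept in 6 of 16 and 9 of 17 fits.

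Of 11 haem synthesis genes, 1 rose and 1 fell in Selfox against Control, 0 passed in LPS against Control, and 1 rose and 2 fell in Selfox against LPS. Beside these counts, 29.1%, 14.7% and 14.5% of all genes tested passed. Alas1, the rate-limiting enzyme of haem synthesis in the liver, had a lowest, median and highest level of 128, 203 and 358 CPM in Selfox, 139, 402 and 549 CPM in LPS and 228, 428 and 698 CPM in Control. The groups overlapped, with 6 of 10 Selfox libraries below every Control library. Alas1 fell by 0.95 ± 0.26 in Selfox against Control (edgeR adjusted p = 0.00801) and by 0.84 ± 0.25 against LPS (edgeR adjusted p = 0.0231), the second call being lost without LPS 1 or LPS 7 and without the libraries with Dbp above Arntl. Ppox, the next-to-last enzyme of the pathway, rose by 0.31 in Selfox against Control (edgeR adjusted p = 0.0124). Against LPS, Fech, the last enzyme, rose by 0.27 (edgeR adjusted p = 0.0122) and Alad fell by 0.30 in Selfox (edgeR adjusted p = 0.0199), both lost without the libraries with Dbp above Arntl. In LPS against Control the nearest were Alad at 0.25 (edgeR adjusted p = 0.0886) and Ppox at 0.21 (edgeR adjusted p = 0.14).

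Of 18 genes of iron-sulfur cluster assembly, 2 rose and 2 fell in Selfox against Control, 2 rose and 1 fell in LPS against Control, and 1 fell in Selfox against LPS. Over all genes tested, 29.1%, 14.7% and 14.5% passed in these comparisons. Iscu, the scaffold on which the clusters are built, had medians of 58.9 CPM in Selfox, 56.8 in LPS and 47.4 in Control. It rose by 0.33 ± 0.057 in Selfox (edgeR adjusted p = 0.000209) and by 0.23 ± 0.06 in LPS (edgeR adjusted p = 0.0133) against Control. All 10 Selfox libraries exceeded every Control library, as in 2.37% of all genes tested, and 6 of 7 LPS libraries also did so. The late-acting assembly genes Isca1 and Iba57 fell in Selfox against Control, by 0.27 ± 0.056 (edgeR adjusted p = 0.000949) and by 0.37 ± 0.10 (edgeR adjusted p = 0.0109). Iba57 also fell in LPS against Control, by 0.52 ± 0.11 (edgeR adjusted p = 0.00403), and Isca1 fell in Selfox against LPS, by 0.29 ± 0.053 (edgeR adjusted p = 0.000676). Fdxr, which supplies electrons for assembly, rose by 0.30 ± 0.08 in LPS against Control (edgeR adjusted p = 0.00886).

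**Figure D4:**
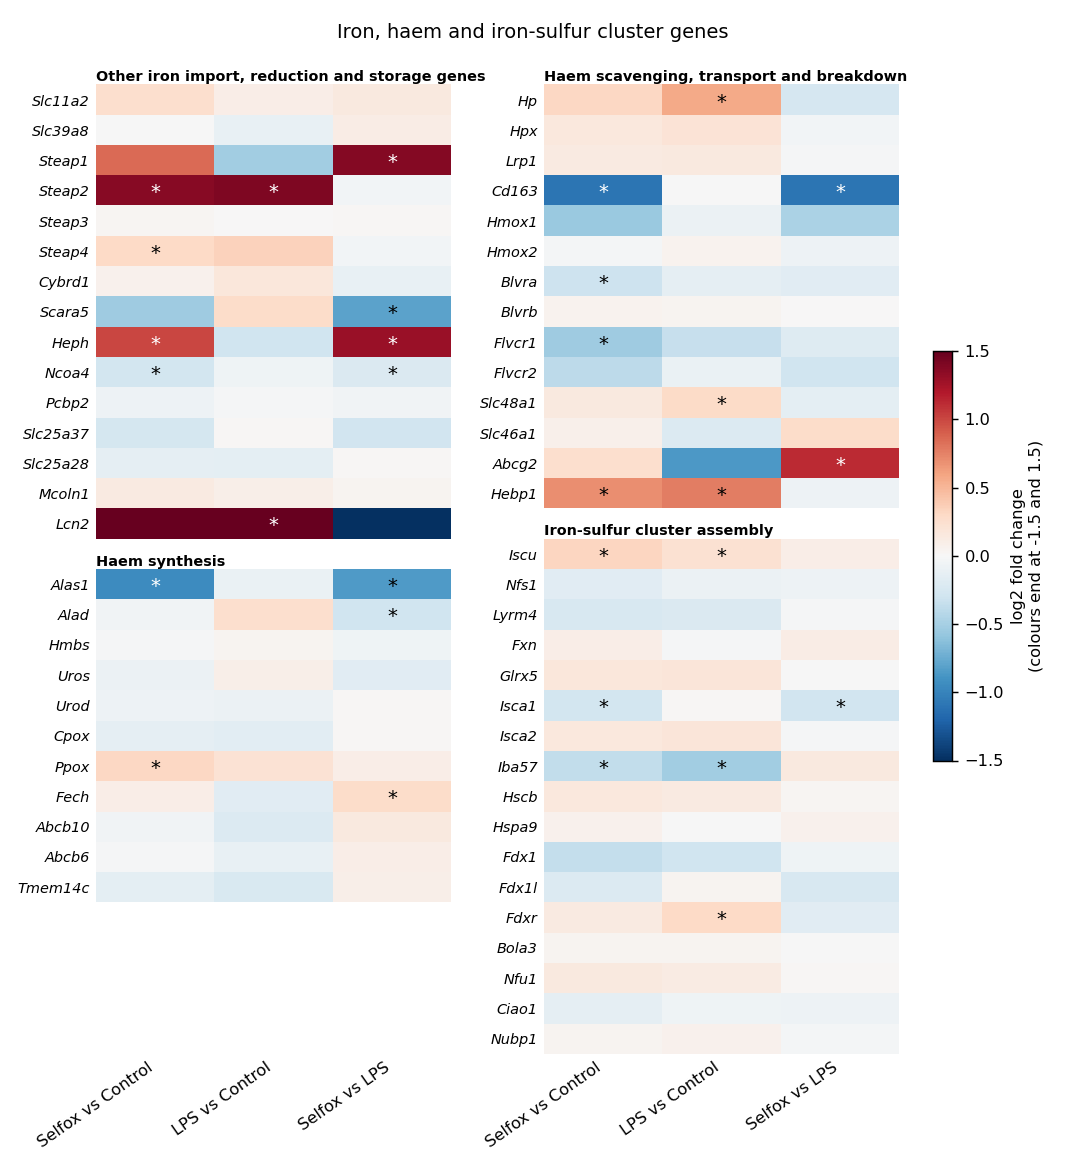
Log2 fold change of iron import and storage, haem and iron-sulfur genes (down the page) in Selfox against Control, LPS against Control and Selfox against LPS (from left to right), with asterisks where the edgeR adjusted p was under 0.05. Heph is higher and Cd163 and Alas1 are lower in Selfox against both other groups, and Hebp1 is higher in both models against Control.

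Because Hamp varied widely within each group, its level was set against that of the other members and of signalling targets in the same libraries. Group means were removed from log2 CPM, and 13 relations were tested over 23 libraries by permutation within groups. Pearson's r and Spearman's rho passed in 0 of 13, the lowest adjusted permutation p being 0.728 for r and 0.822 for rho. The largest r was with Slc39a14, at 0.383 (permutation p = 0.109; rho 0.287), and it was 0.255 without Control 46 and Control 55, the Hamp values farthest from the median. For r without those libraries, here and for Ftl1 below, the group means removed still included them. Hamp and Bmp6 gave r = -0.055, with -0.075 within Selfox, -0.792 within LPS and 0.379 within Control. Hamp and Cp gave r = 0.216, with 0.544 within Selfox, -0.323 within LPS and 0.164 within Control. The relation with Ftl1 was 0.15 over all libraries and -0.378 without Control 46 and Control 55; within groups it was -0.642 in Selfox, -0.251 in LPS and 0.721 in Control. Over the 18 libraries without those with Dbp above Arntl, r of Hamp and Ftl1 was -0.54 (permutation p = 0.0321, adjusted p = 0.418), and again 0 of 13 passed.

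**Figure D5:**
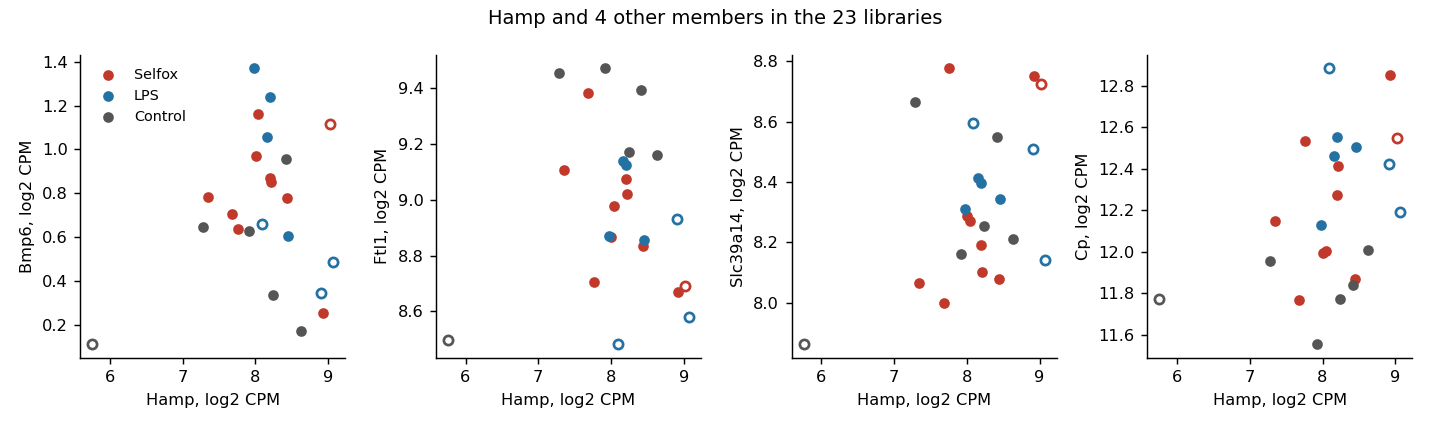
Level of Hamp (x axis) against Bmp6, Ftl1, Slc39a14 and Cp (y axes) in the 23 libraries, in log2 CPM before group means were removed; colours mark Selfox, LPS and Control, and open circles the 5 libraries with Dbp above Arntl. Control 55, with Hamp at 5.76 log2 CPM, stands far to the left in every panel.

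Over all genes tested, the 5 whose group-centred log2 CPM was most like that of Hamp over the 23 libraries were Zbtb8a (r = 0.778), Agtpbp1 (0.767), Zfp667 (0.751), Spast (0.72) and Atg2a (0.72). Without Control 55 and Control 46, over 21 libraries, r was 0.69 for Zbtb8a, 0.566 for Agtpbp1, 0.613 for Zfp667, 0.472 for Spast and 0.558 for Atg2a. The group means removed for these values were still those of all 23 libraries. Against Control all 5 had negative log2 fold changes in both models, where those of Hamp were positive and did not pass. Zbtb8a, Spast and Atg2a passed as lower in both. The r values are a description of which genes varied together in these libraries, which differ in depth between Control and the models.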

How the data were processed

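Read counts per gene were deposited by the authors for 23 libraries. Per the submitters' processing notes, reads were checked with FastQC, trimmed with Trim Galore, aligned with STAR 2.7.9a and counted with featureCounts of Subread 2.0.3; per the labels' protocols, a stranded mRNA kit was used. Build, annotation and strand setting are not given in the sources used for this work, which leaves overlapping and antisense genes uncertain.

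From these counts, edgeR 4.0.16 in R 4.3.3 kept genes by filterByExpr with a minimum count of 10, which left 15079 of 21753 genes with any count. All 3 groups were fitted together with TMM factors and robust quasi-likelihood dispersion, and p-values were adjusted by the method of Benjamini and Hochberg over all genes tested, with a threshold of 0.05. SE was taken as the absolute log2 fold change over the root of F. CPM used TMM-scaled library sizes, and log2 CPM a prior count of 2. Correlations used 100000 permutations. The steps were tested on simulated data. Other settings were factors by RLE or upper quartile, no filter, a minimum count of 50, DESeq2 1.42.0, limma 3.58.1 voom with sample weights, the compared groups alone, counts divided by 2, counts thinned to equal depth, leaving out the 5 libraries with Dbp above Arntl, leaving out each library in turn and a replicate block. Libraries 1 to 7 of LPS and Selfox were also fitted without that block. Replicate numbers 1 to 7 shared by LPS and Selfox did not pair the libraries.

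Members and lists were chosen with earlier results of these data known. Named genes are all members, up to 4 genes past the threshold per list and comparison by adjusted p (or the 2 of lowest adjusted p), and the 5 genes most like Hamp; genes beyond these, and Socs3, were named after their values were seen. Of 182 list entries 176 had a row, 3 of them by a RefSeq synonym. The values of 1 list gene that passed are not reported here, though list counts include it.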

Additional observations from a re-analysis of the deposited data

Results flagged for a closer look

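Within 27 sets of 6 to 10 libraries (each of the 9 tested members in each group), 2 held a library far from the others of its group. Tfrc in Control 49 stood at 6.13 log2 CPM, below the other Control libraries, with a gap to the nearest of 0.748 of the whole range, against a critical share of 0.625 in Dixon's test. Ftl1 in Control 55 stood at 8.50 log2 CPM, also the lowest of its group, with a gap of 0.682 of the range. Chance alone gives such a gap in about 1 group in 20. Control 49 and Control 55 are also the libraries whose absence changed the calls of Cp, Tf and Ftl1.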

How the results depend on the processing

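Cp in LPS against Control passed in all 13 fits without 1 library and in all 10 other settings. Without 1 library in turn, genes called ranged from 3638 to 4705 in Selfox against Control, from 1409 (without Control 49) to 2723 in LPS against Control and stayed at or above 1830 in Selfox against LPS. Members called ranged from 0 (without Control 49) to 3 in Selfox against Control and from 1 to 2 (without Control 55, with Ftl1 lower added) in LPS against Control, and were 0 in Selfox against LPS. Genes called in Selfox against LPS were 1434 without the libraries with Dbp above Arntl. With the replicate block for the 7 shared numbers of LPS and Selfox they were 1259, against 2187 over all libraries; member calls stayed at 0, the numbers do not pair the libraries (1 of 7 pairs correlated over 0.1, and 1 of 7 correlated best with its own number), and the cause of these moves was not tested.

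Sign changes, among members all in values that had not passed, were these. In LPS against Control, Tfrc was at -0.0032 with upper-quartile factors, -0.016 with limma voom and -0.081 to 0.064 without 1 library, and without the libraries with Dbp above Arntl Tfr2 was at -0.022 and Slc39a14 at -0.021. In Selfox against Control, without those libraries, Hamp was at -0.034 and Slc39a14 at -0.076, and Slc39a14 ran from -0.027 to 0.13 without 1 library. In Selfox against LPS, Bmp6 ran from -0.11 to 0.066 and Slc39a14 from -0.094 to 0.0017 without 1 library, and without the libraries with Dbp above Arntl Ftl1 was at -0.024, Dbp at 0.19 and Per3 at 0.43. Dbp and Per3, clock genes, had passed over all libraries, and the libraries were left out by Dbp. Among values of single members, 280 under other settings and 400 without 1 library kept direction and call.

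Depth limits Bmp6, at no more than 200 counts per library, and Slc40a1, which could not be tested. Counts carry no length scale here, so levels were not compared between genes, except Dbp with Arntl. That comparison picked the libraries with Dbp above Arntl, and its cut depends on the missing length scale.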
